A study of Mus musculus with 7 samples.

Results

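The genes described are the 9 subunit genes of neuronal nicotinic acetylcholine receptors listed in these tables, 6 alpha subunit genes (Chrna2 to Chrna7) and 3 beta subunit genes (Chrnb2 to Chrnb4). They were taken by gene symbol from 20187 protein-coding genes named in all 7 tables. Each table holds the RNA of 1 neuron from the stratum oriens/alveus of hippocampal area CA1 of VIP-eGFP mice, in which the Vip gene's control sequences drive a green fluorescent protein. The 7 cells form 1 untreated group. Each was recorded with a patch pipette, filled with biocytin, kept when its axon reached the subiculum, and aspirated. The labels give no age and tie no cell to an animal, so the cells counted as 1 sample and no p-value was made. Values are given per cell, and an SD is the spread between these cells, which may be technical.

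Nicotinic receptors are cation channels of 5 subunits that open when acetylcholine binds. Alpha2, alpha3, alpha4 and alpha6 subunits need a beta2 or beta4 partner to form the binding site, alpha7 can form a channel by itself, and alpha5 and beta3 join other subunits as accessory members. In the hippocampus, nicotinic currents are known mainly from interneurons, and acetylcholine reaches them from septal axons.

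The subunits can be told apart in their coding sequence. An alpha subunit carries a pair of adjacent cysteines in a loop of the acetylcholine site, and a beta subunit does not. The stretches below show that place in the 5 subunit genes found above 1 TPM (transcript abundance corrected for length and scaled to a fixed total per library). They are 42 bases of GENCODE M21 transcripts on GRCm38 (mm10), written 5′ to 3′ on the coding strand, and the 6 capitals mark the cysteine codon pair or, in the beta genes, the codons aligned with it.
Chrna4: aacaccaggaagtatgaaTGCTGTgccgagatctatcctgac
Chrna3: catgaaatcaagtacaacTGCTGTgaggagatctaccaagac
Chrna5: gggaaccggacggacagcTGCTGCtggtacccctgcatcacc
Chrnb2: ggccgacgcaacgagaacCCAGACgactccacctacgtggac
Chrnb4: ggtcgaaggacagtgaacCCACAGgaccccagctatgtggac
The stretches lie at chr2:181029260-181029301 (minus strand, Chrna4), chr9:55015836-55015877 (minus, Chrna3), chr9:55004599-55004640 (plus, Chrna5), chr3:89761338-89761379 (minus, Chrnb2) and chr9:55035329-55035370 (minus, Chrnb4). Each is within 1 coding exon. The adjacent codon pair was present in 6 of the 6 alpha genes and in 0 of the 3 beta genes. Runs of 31 bases shared with another nicotinic gene numbered 22 of 4535 in Chrna4, all with Chrna2, which had 22 of its 3524. They numbered 3 of 4328 in Chrna3, all with Chrnb4, and 6 of 3681 in Chrnb4. Chrna5 and Chrnb2 had 0.

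The libraries held 1052327 to 3398521 estimated counts, of which 685951 to 2730256 fell on the shared protein-coding genes. Their share of all TPM lay between 12.7% (cell 6) and 70.0% (cell 7), so levels are also given per protein-coding count or as TPM rescaled over these genes. The tables of cells 1 to 6 list RefSeq transcripts and that of cell 7 lists Ensembl transcripts, and each was normalised separately. Of 6 VIP interneuron markers, 4 to 6 were above 1 TPM in each cell. Vip, Gad1 and Adarb2 passed in 7 of 7 cells, Gad2 in 6 (0.218 TPM in cell 7), the vesicular GABA transporter gene Slc32a1 in 5 (0 in cells 6 and 7) and Htr3a in 3.

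The 7 cells held different sets of nicotinic subunits. Chrnb4 and Chrna3 were strong in cell 2, Chrnb2 was present in cells 1, 2 and 6, and Chrna4 was spread most widely, over cells 1 to 4. Cells 5 and 7 had no member above 1 TPM, and Chrna2, Chrna6, Chrna7 and Chrnb3 passed it in none of the 7 cells. In all, 11 of 63 values (9 genes in 7 cells) were above 1 TPM, or 17.5%, against 23.6% of the values of all 20187 protein-coding genes.

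**Figure D1:**
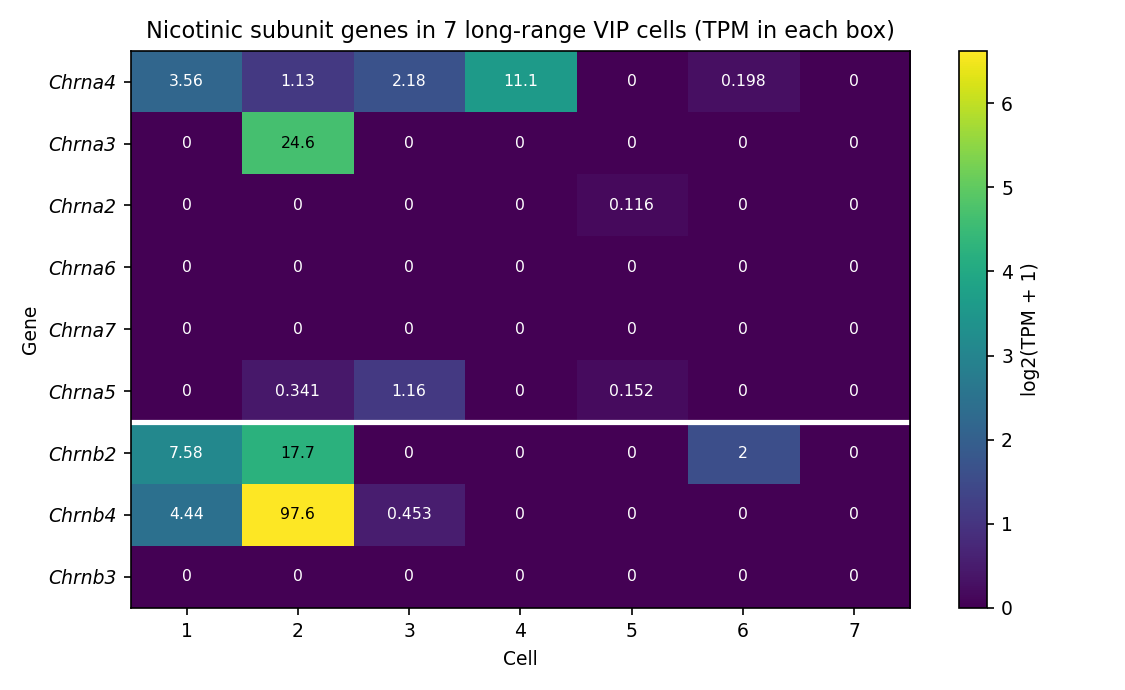
Heat map of the 9 nicotinic subunit genes (rows, alpha genes above the white line and beta genes below it) in the 7 cells (columns). Colour is log2(TPM + 1) and the number in each box is the TPM; Chrna4 has values in 5 cells, Chrnb2 and Chrnb4 in 3 each, and the Chrna6, Chrna7 and Chrnb3 rows are at 0.

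Chrna4 encodes an agonist-binding alpha subunit, part of the alpha4beta2 receptor that has high affinity for nicotine. Cells 1, 2, 3 and 4 had 3.56, 1.13, 2.18 and 11.1 TPM of it and cell 6 had 0.198 TPM, while cells 5 and 7 had no counts. Cell 4 stood above the others, with 80 estimated counts against 3 to 28 in the other cells with reads. Its exact 95% Poisson interval, 8.80 to 13.8 TPM, did not meet that of cell 1, the next highest (2.37 to 5.15 TPM). In cell 2, by contrast, 11 counts gave an interval of 0.563 to 2.02 TPM, which includes the threshold of 1 TPM. Such intervals cover counting error only, since PCR copies are not independent molecules, and they do not cover RNA lost when a cell was aspirated. The counts of Chrna4 in cells 1 to 6 lay on 1 of 2 listed RefSeq transcripts (XM_006500551.2), while the other (NM_015730.5) was given practically none. At the level of cell 2, per protein-coding count, 6.50 counts would have fallen in cell 5 and 10.4 in cell 7. The gene lies on chromosome 2 (181018380 to 181043546, minus strand).

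Chrna3 encodes an agonist-binding subunit best known from autonomic ganglia and the medial habenula. It was found in cell 2 with 166 counts, or 24.6 TPM (interval 21.0 to 28.7), and was listed at 0 in the other 6 cells. There, 3 counts would give 0.287 to 0.602 TPM, well below the level in cell 2. Scaled to the smallest protein-coding total, the 166 counts would be 41.7. Chrna3 lies on chromosome 9 (55010111 to 55026562, minus strand).

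Chrna5, the accessory alpha subunit that joins alpha3beta4 and alpha4beta2 receptors, had 8 counts in cell 3 (1.16 TPM, interval 0.499 to 2.28), 2 in cell 2 (0.341 TPM) and 1 in cell 5 (0.152 TPM). Its place above the threshold in cell 3 was therefore within counting error. Chrna2, in mice a marker of oriens-lacunosum moleculare interneurons, which share this layer, had 1 count in cell 5 (0.116 TPM) and none elsewhere. Sst and Npy, markers of those interneurons, were each above 1 TPM in 5 of 7 cells, Lhx6 was above it in 1 and Chodl was at 0 in 7 of 7. Cell 2, with the most nicotinic RNA, had no counts of Sst or Npy.

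Chrna6, Chrna7 and Chrnb3 had no counts in any of the 7 cells. For Chrna7, whose product forms the fast, calcium-permeable homomeric receptor, 3 counts would give 0.439 to 0.923 TPM. The limits were 0.307 to 0.646 TPM for Chrna6 and 0.189 to 0.396 TPM for Chrnb3, 2 neighbours on chromosome 8 whose products are typical of dopaminergic and visual neurons. Rescaled over the protein-coding genes, the same 3 counts stood for a higher TPM in each cell, which is a change of unit only. The rescaled limits ran from cell 7 (lowest) to cell 6 (highest). They were then 0.687 to 3.45 TPM for Chrna7, 0.488 to 2.42 for Chrna6 and 0.306 to 1.48 for Chrnb3. Below these levels, presence could not be told from absence. Chrna7 lies on chromosome 7 (63098692 to 63212569, minus strand), Chrna6 (27403212 to 27413944, minus strand) and Chrnb3 (27368711 to 27399730, plus strand) on chromosome 8, and Chrna2 on chromosome 14 (66135039 to 66152948, plus strand).

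Chrnb2, the main beta partner in the brain, was either clearly present or not detected. Cell 1 had 7.58 TPM (73 counts), cell 2 had 17.7 TPM (211 counts), cell 6 had 2.0 TPM (37 counts), and cells 3, 4, 5 and 7 had 0 counts. As CPM (counts per 1000000 protein-coding counts), the levels in cells 1, 2 and 6 were 76.0, 77.3 and 53.9, with Poisson intervals of 59.5 to 95.5, 67.2 to 88.4 and 38.0 to 74.3. On this scale the 3 intervals overlapped each other, while in TPM cell 2 was well above cells 1 and 6. At the level of cell 6, the cells without reads would have held 55.1 counts (cell 3), 43.7 (cell 4), 87.0 (cell 5) and 138.9 (cell 7).

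Chrnb2 lies on chromosome 3 (89746195 to 89764632, minus strand) and ends next to Adar, a gene for an RNA-editing enzyme on the opposite strand. The kit kept no strand, so reads from shared bases could not be assigned to either gene. In RefSeq, which cells 1 to 6 used, the gene spans overlap by 8 bases. The longer GENCODE form of Chrnb2 shares 984 of 6369 runs of 31 bases with Adar. Adar had 8, 135, 515, 76, 166, 3 and 0 counts in cells 1 to 7. Against these, Chrnb2 had 73, 211, 0, 0, 0, 37 and 0. Both genes had over 100 counts in cell 2 and both had 0 in cell 7. Cells 3, 4 and 5 had counts of Adar alone, and cells 1 and 6 had fewer of Adar than of Chrnb2. The part of shared reads in these counts was not tested.

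Chrnb4, which pairs with alpha3 in the ganglionic type of receptor, had the highest single value of any member. It reached 97.6 TPM in cell 2, on 625 estimated counts (interval 90.1 to 106 TPM). It was at 4.44 TPM in cell 1 (18 counts, 2.63 to 7.02 TPM) and 0.453 TPM in cell 3 (4 counts), and at 0 in cells 4 to 7. Cell 2 thus held 96.6% of all Chrnb4 counts, and the difference from cell 1 was far outside counting error on each scale, at 229 CPM against 18.7. In cell 2 the counts were divided over 3 listed transcripts, with 59.0% on NM_148944.4, 29.8% on XM_006510757.3 and 11.2% on XM_011242655.2. In cell 1 all 18 lay on XM_006510757.3. In GENCODE M21, 91 of its 3681 runs of 31 bases also occur in other genes, 4253 genes in all. Its summed estimates in cells 2 (625.3) and 3 (4.04) were not whole numbers, so part of them could be shared with those genes. Chrnb4 lies on chromosome 9 (55028154 to 55048779, minus strand).

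**Figure D2:**
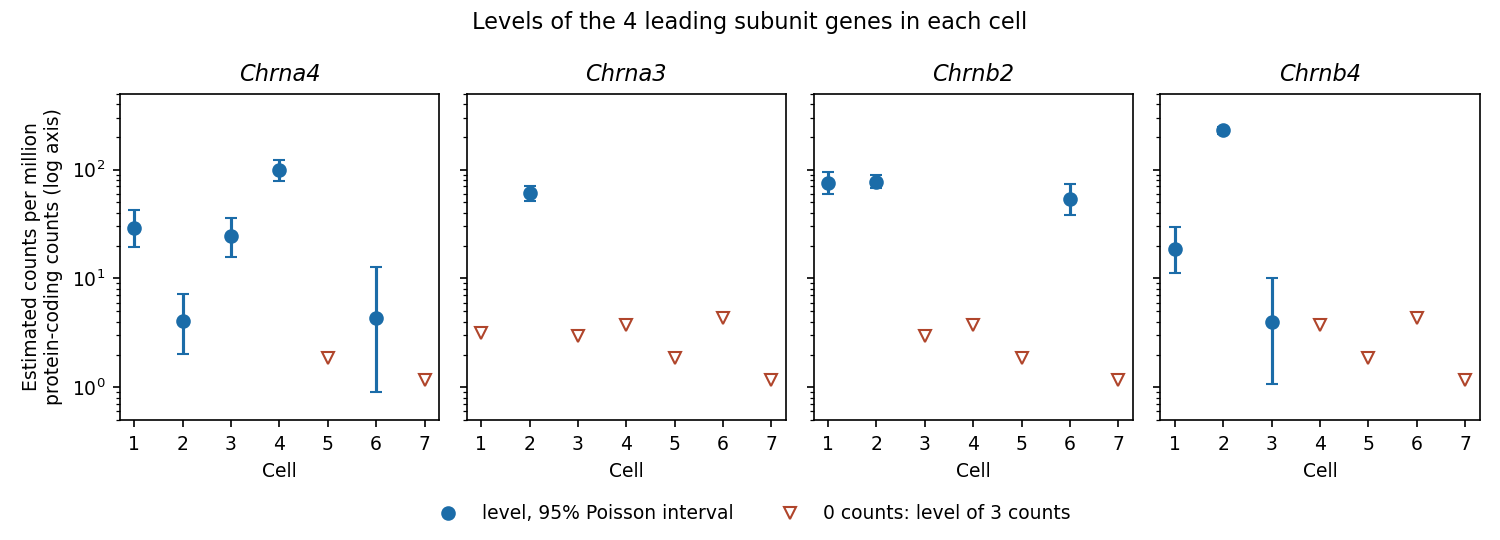
CPM over protein-coding counts (log axis) of Chrna4, Chrna3, Chrnb2 and Chrnb4 in each of the 7 cells. Filled circles are levels with exact 95% Poisson intervals, and open triangles stand at the level of 3 counts in cells with 0 counts; Chrnb2 is between 53.9 and 77.3 in cells 1, 2 and 6, and Chrna4 runs from 4.03 to 98.8.

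The order of the members by mean log2(TPM + 1) over the 7 cells was Chrnb4 (1.37 ± 2.48, SD), Chrnb2 (1.27 ± 1.76), Chrna4 (1.26 ± 1.34), Chrna3 (0.67 ± 1.77), Chrna5 (0.25 ± 0.41) and Chrna2 (0.02 ± 0.06), with n = 7 cells each. Each neighbouring pair in this order differed by less than the larger SD of the pair. The order of the first 3 also changed with the scale. Rescaled over the protein-coding genes it was Chrna4 (2.12), Chrnb2 (1.93) and Chrnb4 (1.81), and with the highest transcript alone Chrnb4 (1.23) came after Chrnb2 and Chrna4. The median over the 9 members was 0.25, against 0.41 over all 20187 genes.

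Chrna5, Chrna3 and Chrnb4 are neighbours on chromosome 9, within 67.9 kb. Chrna3 and Chrnb4 run in the same direction with 1591 bases between them, and Chrna5 faces them from the other strand. Both genes of the same-strand pair were high in cell 2, whereas Chrna5 had 2 counts there. Chrnb4 was also above 1 TPM without Chrna3 in cell 1, and had 4 counts (0.453 TPM) without it in cell 3. In the RefSeq annotation of GRCm38 the spans of Chrna5 and Chrna3 overlap by 1304 bases, and unstranded reads from that part could belong to either gene.

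**Figure D3:**
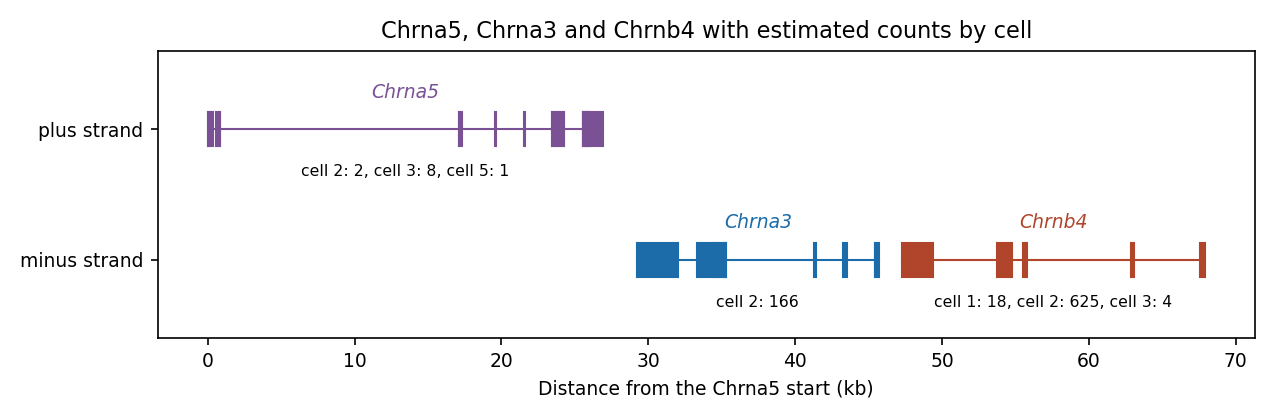
Map of the Chrna5, Chrna3 and Chrnb4 genes on mouse chromosome 9, with distance from the Chrna5 start in kb on the x axis and the strand on the y axis. Boxes are GENCODE M21 exons pooled over transcripts, lines are gene spans, and the text under each gene gives the rounded estimated counts in each cell with reads, which peak at 625 for Chrnb4 in cell 2.

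Whether a cell held RNA for subunits that assemble together was then examined pair by pair. An alpha and a beta gene were both above 1 TPM in 2 of 7 cells, cells 1 and 2. Cells 3 and 4 had an alpha gene alone, cell 6 a beta gene alone, and cells 5 and 7 neither. Chrna4 with Chrnb2, the pair of the high-affinity receptor, was found in cells 1 and 2. Chrna4 with Chrnb4 was found in the same cells. Chrna3 with Chrnb4 and Chrna3 with Chrnb2 were found in cell 2. Chrna2 and Chrna6 were each found with a beta2 or beta4 gene in 0 cells. With any count taken as detection, Chrna4 joined Chrnb2 in cell 6 too, on 3 counts of Chrna4. It also joined Chrnb4 in cell 3, on an estimate of 4.04 counts of Chrnb4, which was not whole.

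In 5 of these 6 co-detections the beta gene had the higher TPM. In cell 1, Chrnb2 was 2.13 times Chrna4, with intervals that did not overlap, and Chrnb4 was 1.25 times Chrna4, with intervals that did (2.63 to 7.02 against 2.37 to 5.15 TPM). In cell 2, Chrnb4 was 3.97 times Chrna3 and Chrnb2 and Chrnb4 were 15.7 and 86.6 times Chrna4, whose level rests on 11 counts. The exception was Chrnb2 against Chrna3 in cell 2, at 0.718 times. Cell 4 showed the opposite case, with the highest Chrna4 of any cell and no counts of Chrnb2 or Chrnb4, where 3 counts would give 0.340 TPM for Chrnb2 and 0.682 for Chrnb4.

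Cells 1, 2 and 3 had 3, 4 and 2 members above 1 TPM, cells 4 and 6 had 1 each, and cells 5 and 7 had 0. As shares of the 9 genes these were 33.3%, 44.4% and 22.2% for cells 1, 2 and 3, 11.1% for cells 4 and 6, and 0% for cells 5 and 7. Among all 20187 protein-coding genes the shares above 1 TPM were 15.0%, 39.0%, 25.0%, 21.4%, 32.9%, 17.5% and 14.7% in cells 1 to 7. Cell 5 is the case where the members and all genes lay furthest apart. Over the cells together, 5 of 9 members (55.6%) were above 1 TPM in at least 1 cell, against 55.4% of all genes, a share near the background. In 4 or more cells, 1 of 9 members was above 1 TPM, against 19.1% of all genes.

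Summed over the 9 members, nicotinic RNA came to 15.6, 141, 3.79, 11.1, 0.268, 2.20 and 0 TPM for cells 1 to 7. Cell 2 held 78.5% of all member counts and 26.3% of all protein-coding counts. Rescaled over the protein-coding genes, cell 2 was still the highest with 246 TPM, followed by cell 1 with 43.8 and cell 4 with 35.4. Markers of other cell types also varied between the cells. In cell 2 the 4 red blood cell genes summed to 10493 TPM (104 to 3388 in the other cells), the highest sum of any cell. Of these genes, Hba-a2 alone had a higher TPM elsewhere, at 174 in cell 7 against 45.0 in cell 2. The 8 pyramidal genes summed to 189 TPM in cell 2 (12.6 to 470 in the other cells). Slc17a7, the vesicular glutamate transporter gene of pyramidal cells, was at 52.2 TPM there (339 counts), against 7.38 TPM in cell 7 and at most 0.131 TPM in the other 5 cells. Nrgn was at 119 TPM, Camk2a at 9.20 and Neurod6 at 7.98 in cell 2, and each was higher in at least 1 other cell. Neurod1, Tbr1 and Emx1 were at 0 in 7 of 7 cells, and Fibcd1 was at 0 in cell 2. The remaining sums in cell 2 were each below that of at least 1 other cell, with 173 TPM for the 6 oligodendrocyte genes, 166 for the 7 astrocyte genes, 273 for the 7 microglial genes and 0 for the 5 vascular genes. In cell 7, where no member had a count, 5 lists had their highest sums in TPM. These were 20793 TPM for the oligodendrocyte genes (69.9 to 1288 in the other cells), 2241 for the astrocyte genes (28.2 to 1150), 1702 for the microglial genes (1.55 to 1387), 470 for the pyramidal genes (12.6 to 189) and 87.2 for the vascular genes (0 to 27.4). A single gene made up most of each of these 5 sums. These genes were Mbp (oligodendrocyte) at 16129 TPM, Aldoc (astrocyte) at 2150, Aif1 (microglial) at 930, Nrgn (pyramidal) at 458 and Pecam1 (vascular) at 83.7. The astrocyte genes Gfap and Gja1 and the microglial gene C1qa were at 0 in cell 7. Rescaled over the protein-coding genes, the astrocyte sum was higher in cell 1 (3235 against 3200 TPM). The rescaled microglial sum was higher in cell 3 (5505 against 2431 TPM). The part of these transcripts in the nicotinic levels was not tested.

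The proteins that help nicotinic receptors to fold and reach the surface were unevenly represented. Of 6 assembly and trafficking genes, 5 were above 1 TPM in at least 1 cell, against 55.4% of all protein-coding genes. Ric3, a chaperone of nicotinic and related receptors, was at 52.0 TPM in cell 2 (447 counts), at 0.320 TPM in cell 7 and at 0 in the other 5 cells. Tmem35a, which encodes the chaperone NACHO, reached 17.2 TPM in cell 2, with 3.48 and 0.327 TPM for cells 3 and 4 and 0 elsewhere. The cell with the most subunit RNA was also the highest for both chaperone genes. That cell also had the most protein-coding counts (2730256) and the largest share of protein-coding genes above 1 TPM (39.0%). Whether chaperone and subunit RNA go together was not tested. Ywhah, a 14-3-3 protein gene, and Vsnl1, a calcium sensor that binds the alpha4 subunit, were above 1 TPM in 7 of 7 cells, and Ubqln1 was in 5. Ubqln1 (50.8 TPM) was also highest in cell 2. Ywhah was at 386 TPM in cell 2 and close to that in cell 7 (379 TPM). Rescaled over the protein-coding genes, Ywhah was higher in cells 4 (841 TPM) and 6 (1209 TPM) than in cell 2 (673 TPM). Vsnl1 (48.4 TPM in cell 2) was lower than in all other cells but cell 6. Creld2 was at 0 in 7 of 7.

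Of 6 genes of the Lynx family, small membrane-anchored proteins of which several damp nicotinic receptors, 5 were above 1 TPM in at least 1 cell (background again 55.4%). Lynx1 was at 22.0, 35.5, 15.2 and 9.51 TPM in cells 2 to 5 and at most 0.325 TPM in cells 1, 6 and 7. Cells 1, 2, 4, 5 and 6 had 92.1, 79.3, 70.4, 19.9 and 4.37 TPM of Ly6h. Ly6e was above 1 TPM in 6 of 7 cells and Lypd1 in cells 3, 4 and 5. Cell 5 therefore had 4 such modulator genes above 1 TPM and no subunit gene. In cell 7, 0 of 6 were above 1 TPM.

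Of 5 acetylcholine handling genes, 1 was above 1 TPM in at least 1 cell, against 55.4% of all protein-coding genes. Genes that make and pack acetylcholine were not detected, and 8996 of the 20187 protein-coding genes were likewise above 1 TPM in no cell. Chat, Slc18a3 and Slc5a7, which encode its synthetic enzyme, its vesicular transporter and the choline transporter, had no counts in any of the 7 cells. Ache, the gene of the enzyme that breaks acetylcholine down, passed 1 TPM in all cells but cell 3 (0.541 TPM). Its highest values were 319 TPM in cell 2, then 81.5 for cell 5 and 61.0 for cell 4. Bche, a related esterase gene, was at 0 in 7 of 7 cells.

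The muscarinic receptors, the G-protein-coupled receptors for the same transmitter, were distributed differently. Their 5 genes summed to 8.41, 31.7, 7.37, 268, 192, 7.54 and 0.0547 TPM in cells 1 to 7. Nicotinic RNA was above muscarinic RNA in cells 1 and 2, and below it in cells 3 to 6. In cell 7, 1 muscarinic count and 0 nicotinic counts were found. Chrm2, at 268 TPM in cell 4 and 191 in cell 5, accounted for nearly all of the muscarinic sum there. Htr3a, which encodes a serotonin-gated channel of the same superfamily, reached 502 TPM in cell 2, against 215 for cell 7 and 24.9 for cell 4. Cell 7, without nicotinic counts, was thus among the cells with this channel's RNA.

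**Figure D4:**
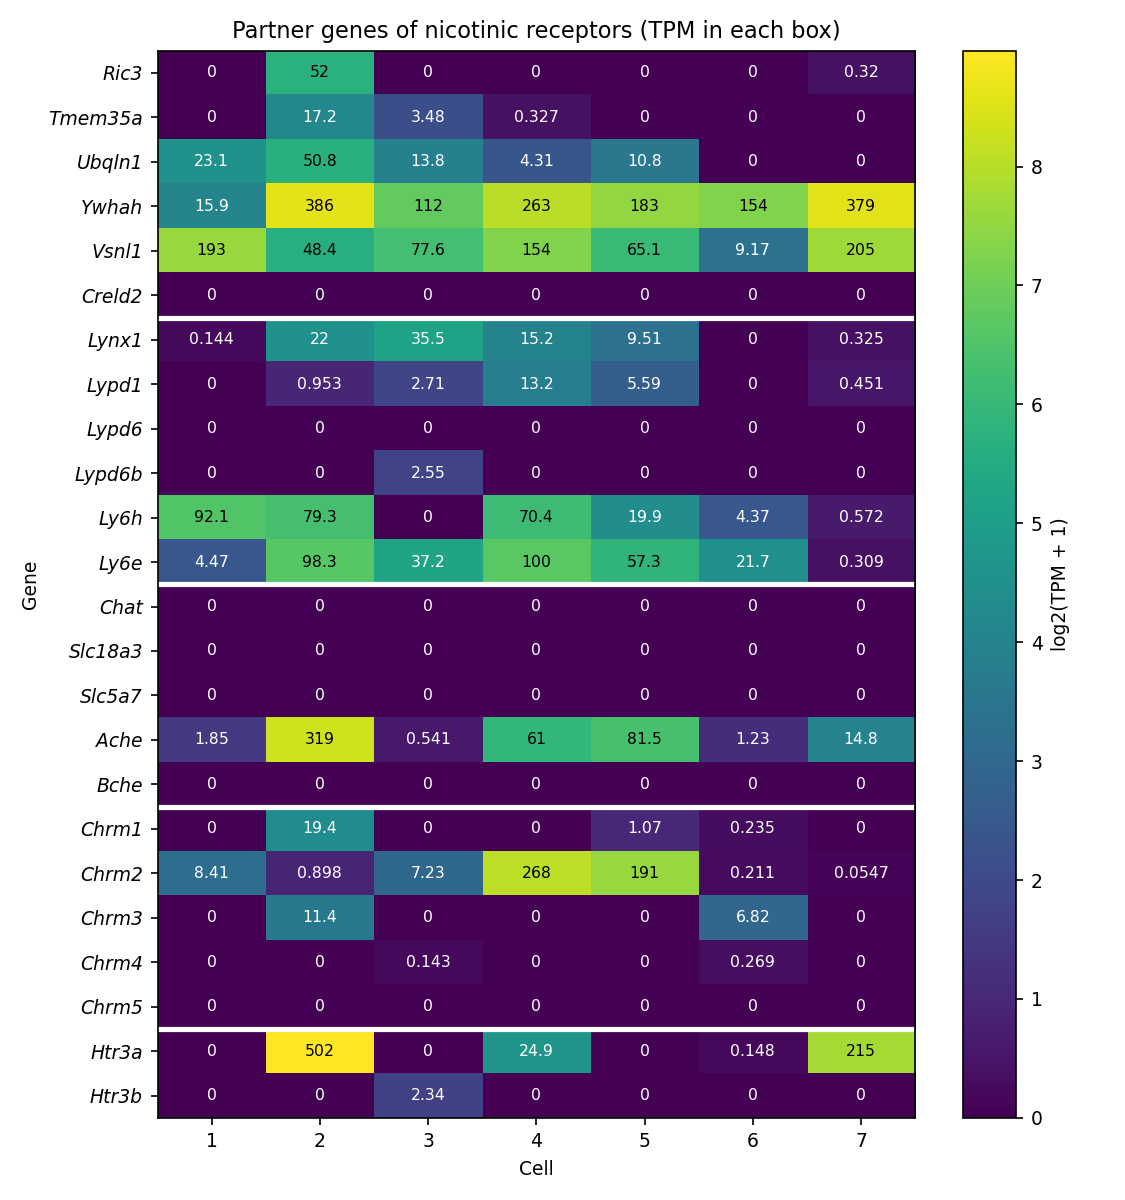
Heat map of 24 partner genes (rows) in the 7 cells (columns), with white lines between the assembly and trafficking genes, the Lynx family, acetylcholine handling, the muscarinic receptors and the serotonin-gated channel genes. Colour is log2(TPM + 1) and the number in each box is the TPM; Chat, Slc18a3 and Slc5a7 are at 0 throughout and Ric3 reaches 52.0 in cell 2.

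The genes of muscle and sensory nicotinic receptors were tabulated too. Of 7, Chrna1 and Chrnd were above 1 TPM in at least 1 cell, against 55.4% of all protein-coding genes. Chrna1, the alpha subunit of the muscle receptor, was highest in cell 7 (13.2 TPM, 177 counts), and cells 2, 3, 4 and 5 had 0.608, 1.09, 0.459 and 2.02 TPM. Its estimates were not whole numbers in these 5 cells, so some reads were divided with other transcripts. In GENCODE M21, 178 of its 4351 runs of 31 bases occur in other genes, 3687 genes in all. The reads could therefore not be assigned to Chrna1 with certainty. Chrnd, the delta subunit gene, had 1.53 TPM in cell 1 and 1.61 in cell 5, also on estimates that were not whole. Chrna10, Chrne and Chrng were at 0 in 7 of 7 cells.

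For the 3 members above 1 TPM in at least 2 cells, the genes with the most similar pattern were sought among 7308 protein-coding genes with a mean log2(TPM + 1) of at least 1. Pearson correlations over 7 cells that share depth and index differences are descriptions only. For Chrnb2 they were Atg14 (r = 0.998), Erp44 (0.996) and Pogz (0.996), each above 1 TPM in cells 1, 2 and 6 alone, as Chrnb2 was. For Chrnb4 they were Dusp4 (0.995), Daxx (0.994) and Atp8a1 (0.993), which follow the value of cell 2. For Chrna4 they were Ankrd34b (0.930), Apod (0.927) and Tnrc18 (0.926), all highest in cell 4.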

How the data were processed

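Single-cell libraries were made with the SMART-Seq v4 and Nextera XT kits, which keep no strand and carry no molecular identifiers, per the labels' protocols; reads were paired. The authors deposited, per the file headers, an estimated count and a TPM value for each transcript, beside its length and effective length. Named in the submitters' processing notes are kallisto, STAR 2.5.2a and the mm10 build, without their roles. TPM and estimated counts were summed per gene symbol, after symbols turned into dates had been looked up by accession. Protein-coding genes are those of GENCODE M21, without mitochondrial genes. Detection means above 1 TPM. Logs are log2(TPM + 1), which understates differences between low values. Poisson intervals (95%, exact) used rounded counts. The level of 3 counts was computed with the median effective length of a gene's listed transcripts.

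The members and lists were chosen with earlier results of these data known. All 9 members are named, list genes where above 1 TPM in a cell or at 0 throughout, and the 3 genes most like each member above 1 TPM in at least 2 cells. The code that ranks similar genes was run on these data (7308 genes) with 3 genes replaced by scaled near copies of the Chrna4 pattern. It recovered 3 of 3. Near copies must rank first, so this checks the code only and not how reliable the rankings are. Alternatives were other thresholds, pseudocounts, 1 transcript (the highest) per gene, rescaling, and leaving out each cell. Python 3.11.15, pandas 2.3.3, scipy 1.17.1 and Biopython 1.88 were used.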

Additional observations from a re-analysis of the deposited data

Results flagged for a closer look

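These are members for which a single cell lay apart from the next by a share of the whole span of log2(TPM + 1) beyond Dixon's 95% critical value for 7 values. They were 4 of 16 values examined, which were the 9 members, 6 gene lists and the summed member TPM. About 1 in 20 groups of normally distributed values would be expected to show this. A gene with counts in a single cell always does. Chrnb4 was high in cell 2 (97.6 TPM) and Chrna3 in the same cell (24.6 TPM). Chrna5 was high in cell 3 (1.16 TPM), on 8 counts. Chrna2 was high in cell 5 (0.116 TPM), on 1 count, which is below the level of 3 counts.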

How the results depend on the processing

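The median number of members detected per cell, 1 above 1 TPM, was 2 above 0 TPM, 0 above 10 TPM and 2 after rescaling over the protein-coding genes, and 1 to 1.5 when each cell was left out in turn. The number of members found in at least 1 cell, 5, lay between 4 and 6 under every alternative run, and was 4 without cell 2 and 4 without cell 3. Pairs of assembling subunits found together, counted over cells, numbered 6. They fell to 2 above 10 TPM and numbered 2 to 6 when each cell was left out, with 2 without cell 2, and were 8 above 0 TPM and 8 after rescaling. Chrna4 was the leading member in 2 cells under each alternative run. With a pseudocount of 0.1, a cell stood far from the others for 2 members in place of 4, Chrna3 and Chrna2, and after rescaling for 3. Rescaling or taking the highest transcript moved the mean log2 value of no member by more than 1 SD, but changed the order of the first 3; with a pseudocount of 0.1 Chrna4 also led. A change of pseudocount shifts the scale itself. No paired analysis was possible because all 7 cells belong to 1 group. Depth limits calls near 1 TPM, where 8 to 11 counts stood behind a value.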
